A study of Mus musculus with 8 samples.

Results

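The antioxidant defence genes described here are 10 mouse genes for enzymes that clear superoxide and peroxides or that are targets of the transcription factor NRF2: Sod1, Sod2, Sod3, Cat, Gpx1, Gpx4, Gclc, Gclm, Hmox1 and Nqo1. They were chosen by gene symbol, and all 10 were found among the 15035 genes of the deposited table. Their transcripts were measured by bulk RNA sequencing of auditory nerves dissected from mice at postnatal day 21. The wild-type group has 4 libraries, replicates 1 to 4. The other group, replicates 5 to 8, is labelled as heterozygous for Mef2c, which encodes a transcription factor of the MADS-box family. Each library stands for 1 mouse, since it was made from the nerves of both its cochleas. The sources used here do not say which part of Mef2c was altered, nor give strain, sex or litter; no treatment is named for either group. In bulk tissue, fewer cells of a type and less RNA per cell cannot be told apart.

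Superoxide, formed mainly by electron leak in mitochondria and by NADPH oxidases, is turned into hydrogen peroxide by the superoxide dismutases. Hydrogen peroxide is then removed by catalase, by glutathione peroxidases and by peroxiredoxins, and the glutathione that these peroxidases use is made by glutamate-cysteine ligase. NRF2, which is held low by KEAP1 until oxidants or electrophiles release it, binds antioxidant response elements and raises transcription of glutamate-cysteine ligase, haem oxygenase and quinone reductase genes. In the cochlea these enzymes are studied for their part in the response to noise, aminoglycosides and ageing.

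Gpx1 and Gpx4 are read through a TGA codon that places selenocysteine in the active site, and their coding sequences around it are shown because the glutathione peroxidases carry the lowest and one of the lower fold changes of the 10 genes. The capitals mark the TGA codon, which is codon 47 of the Gpx1 transcript and codon 129 of the longest Gpx4 transcript, counted from the start codon (GENCODE M21 transcripts, GRCm38, plus strand; the codons lie at chr9:108339451-108339453 and chr10:80054737-80054739).
Gpx1: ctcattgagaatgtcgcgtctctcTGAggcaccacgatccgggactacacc
Gpx4: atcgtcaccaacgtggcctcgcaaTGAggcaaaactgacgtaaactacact

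Promoter windows from RefSeq (GRCm38.p6), running from 250 bases before to 50 bases after a start site, were matched for 7 of the 10 genes and gave 10 windows, since Gpx4 has several start sites. The core antioxidant response element TGACNNNGC was searched on both strands. It was found in 2 of those 10 windows, those of Sod1 and Gclm, and in 12.4% of 32851 windows of the same length over all genes. The stretch upstream of the start site around each match is shown with the match in capitals; in both genes it lies on the strand opposite to the gene. The first is chr16:90220656-90220761 and the second chr3:122245373-122245481, both on the plus strand. A match is a description of the letters and not of binding.
Sod1: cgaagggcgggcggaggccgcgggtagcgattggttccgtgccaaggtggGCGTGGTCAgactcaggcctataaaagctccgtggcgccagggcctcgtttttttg
Gclm: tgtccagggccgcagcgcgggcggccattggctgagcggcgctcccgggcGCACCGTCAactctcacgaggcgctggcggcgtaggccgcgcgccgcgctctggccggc

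The libraries were checked before the members were read. Depth was estimated at between 13363365 and 21507072 counted reads, fewest in wild-type libraries 1 and 4. Mef2c itself was higher in all 4 libraries labelled heterozygote (583.3 to 735.1 normalized counts, meaning reads of a gene over the size factor of its library) than in any wild-type library (402.2 to 508.7), which goes against the label, although a value per gene cannot show a missing exon, so all directions given here follow the labels. Its log2 fold change was 0.53, with a limma-trend adjusted p of 0.186 over all genes, and in the authors' deposited table its FDR was 0.0162. Xist was at 12 and 7.6 normalized counts in wild-type library 1 and heterozygote-labelled library 5, and at least 5175 in the other 6. Markers of the dissected tissue were present: all 8 for spiral ganglion neurons, all 6 for myelinating Schwann cells and all 10 for oligodendrocytes were in the table, and none of these was at 0 in any library. Libraries also differed in how values ran with transcript length. The slope of a library's log2 deviation per doubling of length was -0.21, -0.03, 0.07 and -0.10 in wild-type libraries 1 to 4, and 0.03, 0.05, 0.04 and 0.15 in heterozygote-labelled libraries 5 to 8.

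None of the 10 antioxidant genes changed past the threshold between the genotypes. All 10 passed the filter on low values, 0 had a limma-trend adjusted p under 0.05 in either direction, and their adjusted p ran from 0.278 (Gpx4) to 0.947 (Gclm). Over all 14870 tested genes 0.0807% passed that threshold (0.00672% higher and 0.074% lower), so a count of 0 in 10 is what that share gives. At an unadjusted p under 0.05 there was 1 of 10, Gpx4, which was lower, against 14.1% of all tested genes in either direction, 6.72% higher and 7.34% lower. In 0 of the 10 genes did the genotypes fail to overlap, against 7.26% of all tested genes (3.4% higher and 3.86% lower). The log2 fold change was above 0 for 7 members and below 0 for 3, with a median of 0.07, and over all tested genes 47.7% were below 0 and the median was 0.02. By the FDR in the authors' deposited table, 0 of the 10 were under 0.05, against 1.61% of genes, and the smallest FDR was 0.0822 for Gpx4. Gpx4 and Sod1, 2 of the 10, had a p-value under 0.05 before adjustment in the authors' deposited table, against 15.3% of genes.

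**Figure D1:**
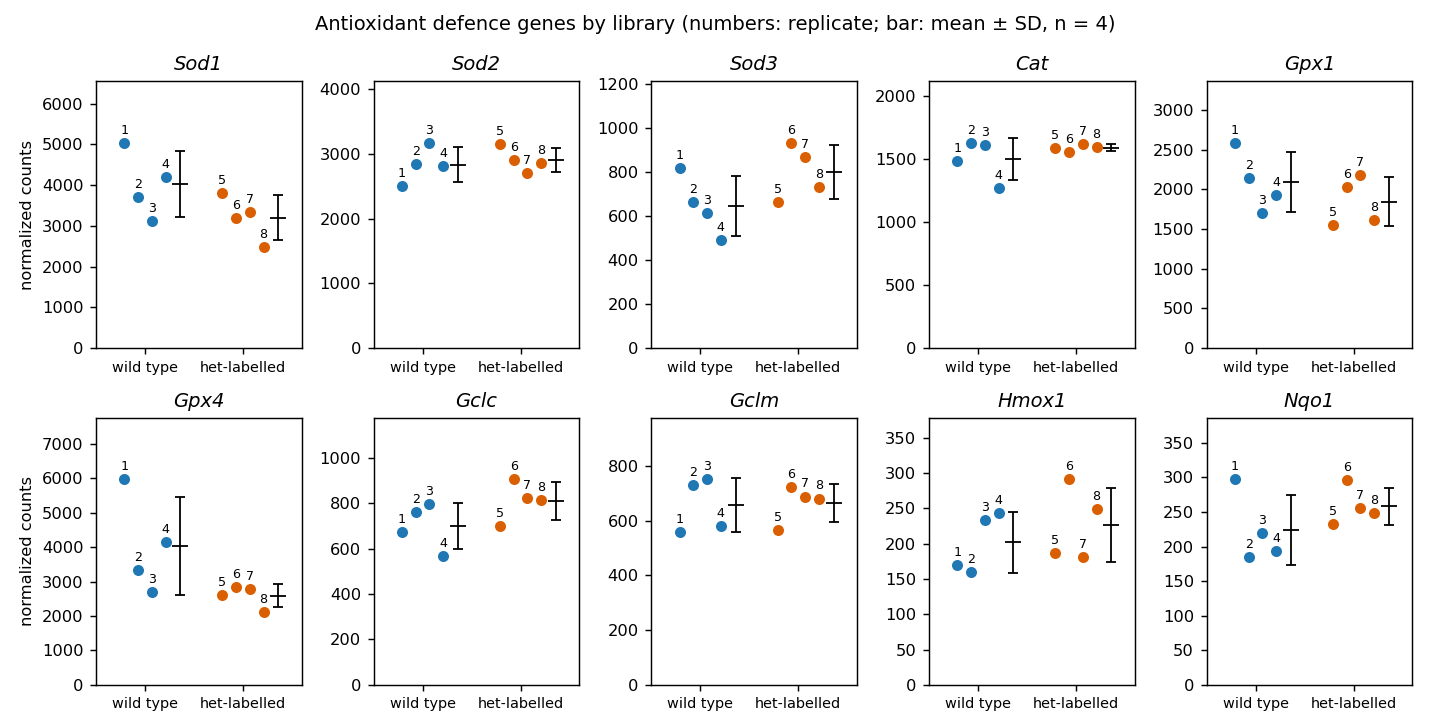
Normalized counts (vertical axes, from 0) of the 10 genes in each library, with wild type in blue and heterozygote-labelled in orange. Numbers give the replicate, and the black bar is the mean with SD (n = 4). In every panel the genotypes overlap, and wild-type library 1 is the highest library for Sod1, Gpx1, Gpx4 and Nqo1.

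Levels were compared between genes as normalized counts per kilobase of the longest protein-coding transcript, a scale that depends on which isoform is expressed. In wild type Sod1 was the most abundant at 6275 ± 1264 normalized counts per kilobase (SD, n = 4), followed by Gpx4 at 4057 ± 1427 and Gpx1 at 1953 ± 351. On this scale Sod1, Gpx4 and Gpx1 lay above 99.2%, 98.4% and 96.3% of tested genes by their mean over all 8 libraries. Cat followed at 573 ± 64 and Sod2 at 483 ± 46, then Gclc at 204 ± 30, Sod3 at 173 ± 36, Nqo1 at 144 ± 33, Hmox1 at 129 ± 27 and Gclm at 118 ± 18 normalized counts per kilobase. The ranges over the wild-type libraries overlapped between Sod1 and Gpx4, between Cat and Sod2, and between each pair of neighbours from Gclc down to Gclm. The means had the same order in the heterozygote-labelled libraries, from Sod1 at 5000 ± 866 to Gclm at 119 ± 12 normalized counts per kilobase. There Sod1 no longer overlapped Gpx4 (2605 ± 341), and Cat no longer overlapped Sod2.

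The superoxide dismutases come first in the pathway. Sod1 (chr16:90220754-90226329 on the plus strand of GRCm38) encodes the copper-zinc enzyme of the cytosol. It had 5044, 3713, 3130.3 and 4202 normalized counts in wild-type libraries 1 to 4, and 3810.5, 3195, 3344 and 2471 in heterozygote-labelled libraries 5 to 8. Wild-type libraries 1 and 4 were the 2 highest and heterozygote-labelled library 8 was the lowest, while wild-type library 3 lay below 3 of the 4 heterozygote-labelled libraries. Means were 4023 ± 810 for wild type and 3205 ± 555 for the other group (SD, n = 4 each). Sod1 had a log2 fold change of -0.32 with a 95% interval from -0.67 to 0.02 and a limma-trend adjusted p of 0.373. Leaving out wild-type library 1 gave -0.21 for Sod1, and leaving out heterozygote-labelled library 8 gave -0.20. On the annotation Sod1 overlaps Scaf4, a gene on the other strand, and the sources used here do not say whether counting used the strand.

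Sod2 (chr17:13006846-13040063), for the manganese enzyme of the mitochondrial matrix, had nearly equal means. Its normalized counts were 2505, 2843, 3171 and 2813 in wild-type libraries 1 to 4 and 3153, 2897, 2706 and 2859 in heterozygote-labelled libraries 5 to 8, so the groups were interleaved. Its log2 fold change was 0.04 with a 95% interval from -0.17 to 0.24, and the limma-trend adjusted p was 0.869. Sod3 (chr5:52363791-52371418) encodes the secreted enzyme, which binds the extracellular matrix. It had 817.6, 662.4, 615.1 and 489.2 normalized counts in wild-type libraries 1 to 4 and 663.7, 932.3, 868.9 and 731.3 in heterozygote-labelled libraries 5 to 8. Wild-type library 1 was the only wild-type library above 663.7, the lowest value in the other group. Sod3 had a log2 fold change of 0.32, the highest of the 10 genes, with a 95% interval from -0.04 to 0.67 and a limma-trend adjusted p of 0.393. Without wild-type library 1 the genotypes of Sod3 did not overlap and the log2 fold change was 0.44 (limma-trend adjusted p 0.298, and 0.213 to 0.786 over all alternatives), where 10.4% of all tested genes did not overlap. Without wild-type library 4 it was 0.19. Markers of fibroblasts, cells that secrete matrix, were summed beside it: their 6 genes gave 23462 to 47227 normalized counts in wild type and 33145 to 47376 in heterozygote-labelled libraries, with wild-type library 1 at 47227 and the other wild-type libraries at or below 27871. The part of those cells in the Sod3 values was not tested.

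Of the peroxide-clearing enzymes, Gpx4 showed the largest difference in size. Gpx4 (chr10:80047166-80056439, plus strand) encodes phospholipid hydroperoxide glutathione peroxidase, which reduces lipid peroxides in membranes and holds back ferroptosis. It had 5969.9, 3323, 2698.5 and 4156 normalized counts in wild-type libraries 1 to 4 and 2623, 2844, 2796 and 2103 in heterozygote-labelled libraries 5 to 8. Wild-type library 3 lay within the range of the heterozygote-labelled libraries and the other 3 wild-type libraries lay above it. With wild-type library 3 left out, the genotypes did not overlap in 20.9% of all tested genes. Means were 4037 ± 1420 for wild type and 2592 ± 339 for the other group (SD, n = 4 each), a ratio of 0.642. Gpx4 had a log2 fold change of -0.59 (SE 0.20), a 95% interval from -1.03 to -0.14, an unadjusted p of 0.0135 and, by limma-trend, an adjusted p of 0.278. Without wild-type library 1 the log2 fold change was -0.38 (limma-trend adjusted p 0.348), and without wild-type library 3 it was -0.76 (0.0544). Over all alternatives the adjusted p of Gpx4 ran from 0.0544 to 0.841, the last of these without both wild-type libraries 1 and 4. There the log2 fold change was -0.22. That alternative was added after seeing the data. Those libraries held the highest wild-type values of Gpx4, so leaving them out lowers the wild-type mean by construction. A pseudogene named Gpx4-ps2 is annotated, and how the authors' counting treated reads shared with it is not given in the sources used here.

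Gpx1 (chr9:108338903-108340343) encodes the soluble glutathione peroxidase of cytosol and mitochondria. It had 2589, 2146, 1706 and 1934 normalized counts in wild-type libraries 1 to 4 and 1554, 2036, 2185 and 1615 in heterozygote-labelled libraries 5 to 8. The groups overlapped widely, with a log2 fold change of -0.18, a 95% interval from -0.50 to 0.14 and a limma-trend adjusted p of 0.579. With 1 library left out Gpx1 ran from -0.27 (without wild-type library 3) to -0.07 (without wild-type library 1), with -0.10 and -0.12 without heterozygote-labelled libraries 5 and 8. Cat (chr2:103453849-103485160, minus strand), for the peroxisomal catalase, was the steadiest of the 10 in the libraries labelled heterozygote. Its normalized counts were 1581.5, 1557, 1620.0 and 1597 there, a coefficient of variation of 1.67%, and 1483, 1628, 1612 and 1265 in wild-type libraries 1 to 4, a coefficient of variation of 11.2%. Wild-type library 4 was the lowest, and the log2 fold change of Cat was 0.09 with a 95% interval from -0.12 to 0.31 and a limma-trend adjusted p of 0.676. Without wild-type library 4 it was 0.01. Red blood cells are rich in these enzymes, and 7 of the 8 erythroid markers were in the table. Their summed normalized counts were 34445 and 22396 in wild-type libraries 1 and 4, 14045 and 10171 in wild-type libraries 2 and 3, and from 8543 to 29310 among heterozygote-labelled libraries, with library 7 highest. In wild type, Cat was lower in libraries 1 and 4 (1483 and 1265) than in libraries 2 and 3 (1628 and 1612). Sod1 and Gpx4 were higher in libraries 1 and 4 than in libraries 2 and 3. The part of red blood cells in the levels of Cat, Gpx1, Gpx4 or Sod1 was not tested.

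Glutamate-cysteine ligase, the rate-limiting enzyme of glutathione synthesis, is built from a catalytic subunit (Gclc) and a modifier subunit (Gclm). Gclc (chr9:77754535-77794485) had 673.5, 760.2, 795.6 and 568.9 normalized counts in wild-type libraries 1 to 4 and 700.6, 904.4, 823.6 and 813.8 in heterozygote-labelled libraries 5 to 8. 3 of the 4 heterozygote-labelled libraries lay above every wild-type library, and library 5 lay among the wild-type libraries. With library 5 left out, the genotypes did not overlap in 13% of all tested genes. Gclc had a log2 fold change of 0.22 with a 95% interval from -0.07 to 0.50 and a limma-trend adjusted p of 0.455. Leaving out wild-type library 4 gave 0.12 for Gclc. Leaving out libraries 1 and 4 of wild type, a choice made after seeing the data, gave 0.05. Those libraries held the lowest wild-type values of Gclc, so leaving them out raises the wild-type mean by construction. Gclm (chr3:122245557-122270732) had 560.6, 732.6, 751.6 and 582.2 normalized counts in wild-type libraries 1 to 4 and 565.9, 723.2, 688.9 and 681.6 in heterozygote-labelled libraries 5 to 8. These values were interleaved, and the log2 fold change of Gclm was 0.02 with a 95% interval from -0.27 to 0.32 (limma-trend adjusted p 0.947). On the annotation Gclm overlaps Gm17494 on the other strand and the pseudogene Gm6061 on its own strand. As a ratio within each library, a quantity chosen after its values were seen, Gclc over Gclm normalized counts was 1.201, 1.04, 1.06 and 0.98 in wild-type libraries 1 to 4 and 1.24, 1.25, 1.196 and 1.19 in heterozygote-labelled libraries 5 to 8. The means were 1.07 ± 0.09 and 1.22 ± 0.03 (SD, n = 4 each), and wild-type library 1 was above heterozygote-labelled libraries 7 and 8.

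Hmox1 and Nqo1 are the best-known NRF2 targets among the 10. Hmox1 (chr8:75093621-75100589) encodes haem oxygenase 1, the inducible enzyme that splits haem into biliverdin, iron and carbon monoxide. It had the lowest mean in normalized counts of the 10 genes, with 170.0, 160.1, 232.8 and 244.0 normalized counts in wild-type libraries 1 to 4 and 186.8, 291.0, 180.9 and 248.5 in heterozygote-labelled libraries 5 to 8. Each genotype held 2 low and 2 high libraries. The log2 fold change of Hmox1 was 0.16, with the widest 95% interval of the 10, from -0.31 to 0.64, and a limma-trend adjusted p of 0.742. Leaving out heterozygote-labelled library 6 gave 0.04 for Hmox1, and leaving out wild-type library 2 or 1 gave 0.06 or 0.09. Leaving out wild-type library 4, or library 5 or 7 of the other group, gave 0.25 to 0.26. Macrophages express Hmox1, and the 10 macrophage markers summed to 4084 to 6095 normalized counts in wild type and 3667 to 4838 in heterozygote-labelled libraries, with none at 0. Their part in the Hmox1 values was not tested.

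Nqo1 (chr8:107388225-107403206, minus strand) encodes a quinone reductase that reduces quinones with NAD(P)H and so avoids semiquinone radicals. It had 297.2, 185.3, 219.1 and 193.3 normalized counts in wild-type libraries 1 to 4 and 232.5, 296.2, 255.4 and 248.5 in heterozygote-labelled libraries 5 to 8. Apart from wild-type library 1, which was the highest of all 8, the wild-type libraries lay below every heterozygote-labelled library. Without wild-type library 1 the genotypes did not overlap in 10.4% of all tested genes. Nqo1 had a log2 fold change of 0.23 with a 95% interval from -0.18 to 0.63 and a limma-trend adjusted p of 0.579. Without wild-type library 1 the value was 0.37 (limma-trend adjusted p 0.398, and 0.335 to 0.797 over all alternatives), and without wild-type library 2 it was 0.14. Neither Hmox1 nor Nqo1 was shown to differ, and both intervals reach to either side of 0.

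**Figure D2:**
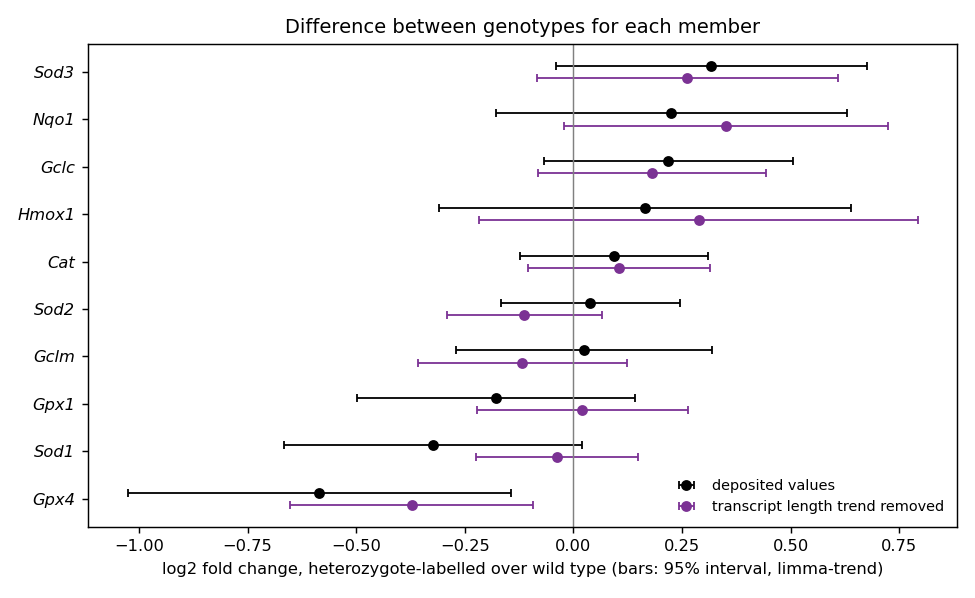
Log2 fold change (horizontal axis, heterozygote-labelled over wild type) of each member with its 95% interval from limma-trend, from the deposited values (black) and after the trend with transcript length was removed from each library (purple). Gpx4 is the only member whose interval leaves out 0, in both forms, and the value of Sod1 moves from -0.32 to -0.04.

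The fold changes of the 10 genes were then set against transcript length. The 3 members with a log2 fold change below 0 were the 3 with the shortest transcripts: Sod1 at 641 bases, Gpx4 at 995 and Gpx1 at 1072, shorter than all but 1.41%, 5.25% and 6.36% of tested genes. In the shortest of 10 bins of all tested genes, with a median length of 980.5 bases, the median log2 fold change was -0.27, and in the longest bin, with a median of 8340.5 bases, it was 0.23. Over the 14517 genes with a length, log2 fold change and length had a Spearman correlation of 0.46; genes are not independent replicates. Beside that median of -0.27, Sod1 was at -0.32, Gpx1 at -0.18 and Gpx4 at -0.59. Nqo1 (1553 bases) and Hmox1 (1569 bases) lay above the median of -0.15 in the bin with a median length of 1557 bases.

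When a smooth trend with length was removed from each library, the log2 fold change of Sod1 was -0.04, with a 95% interval from -0.22 to 0.15, and that of Gpx1 was 0.02 (-0.22 to 0.26). For Gpx4 it was -0.37, with a 95% interval from -0.65 to -0.09, an unadjusted p of 0.0134 and, by limma-trend, an adjusted p of 0.333, beside 10.5% of all genes at an unadjusted p under 0.05 in that fit. Nqo1 had a log2 fold change of 0.35 (-0.02 to 0.72) and Hmox1 of 0.29 (-0.22 to 0.79). Sod2 and Gclm, whose transcripts of 5861 and 5589 bases are the longest of the 10, had -0.11 and -0.12. With the trend removed 0 of the 10 members passed an adjusted p of 0.05, against 0.188% of all genes.

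**Figure D3:**
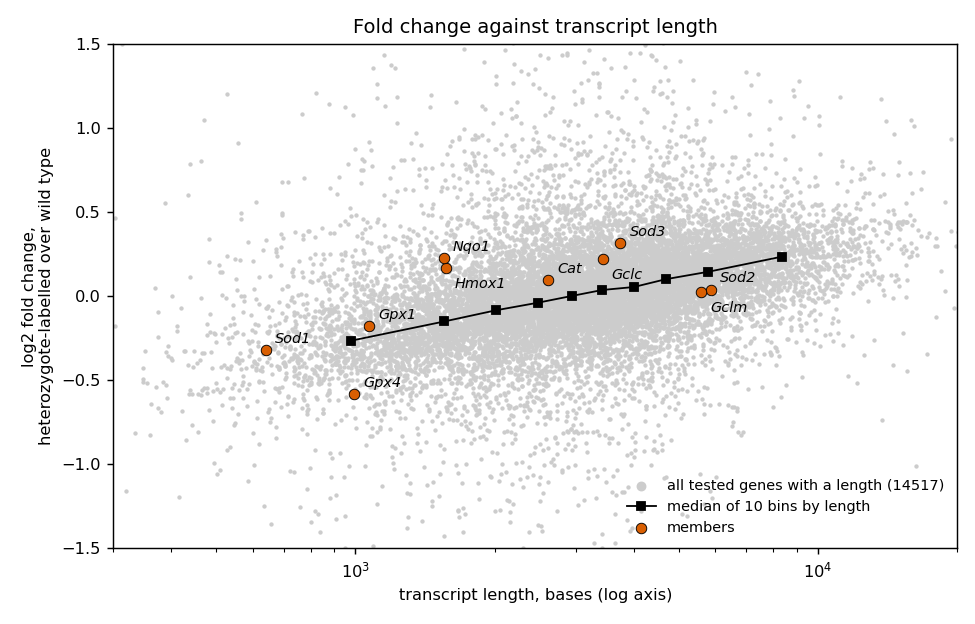
Log2 fold change (vertical axis, heterozygote-labelled over wild type) against transcript length in bases (log axis) for all tested genes with a length (grey), the median of 10 length bins (black squares) and the 10 members (orange). Points outside the axes are not drawn. Gpx1 lies close to the black line, Gpx4 below it, and Nqo1 and Hmox1 above it. Sod1, at 641 bases, lies to the left of the line, which starts at 980.5 bases, and near the level of its first square.

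**Figure D4:**
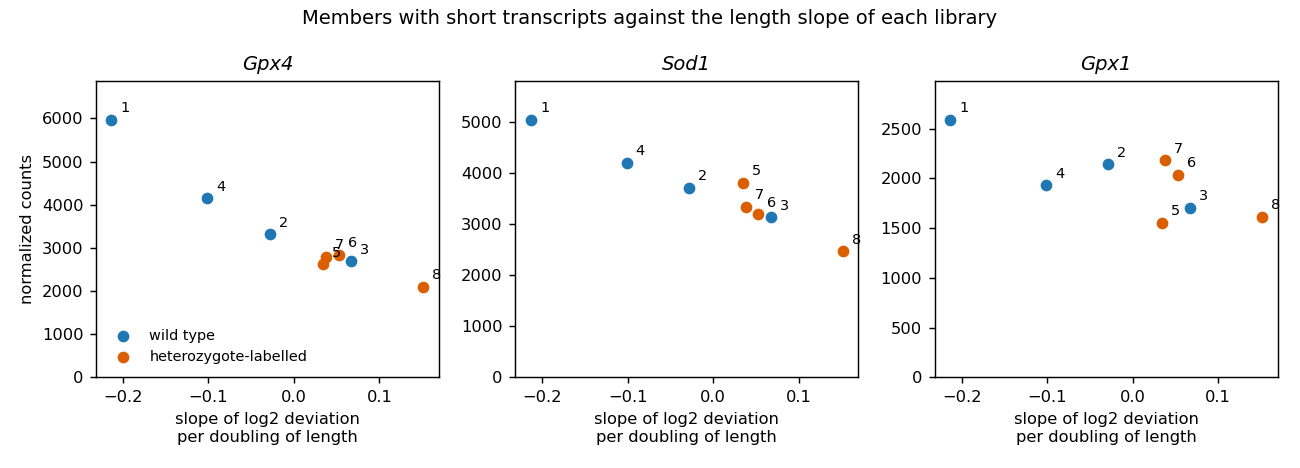
Normalized counts (vertical axes, from 0) of the 3 members with the shortest transcripts against the slope of each library's log2 deviation per doubling of transcript length (horizontal axes), with replicate numbers beside the points. Gpx4 and Sod1 are highest in wild-type library 1 (slope -0.21) and lowest in heterozygote-labelled library 8 (slope 0.15), and wild-type library 3 (slope 0.07) lies among the heterozygote-labelled libraries. Gpx1 is also highest in wild-type library 1 but lowest in heterozygote-labelled library 5 (slope 0.03). Within each genotype its order differs from that of the slopes.

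The plot by slope also shows the order of libraries within each genotype. Among the wild-type libraries the order from high to low was 1, 4, 2 and 3 for both Sod1 and Gpx4. That is also the order of the slopes from -0.21 to 0.07. Among the heterozygote-labelled libraries Sod1 followed the order of the slopes (5, 7, 6 and 8) and Gpx4 did not (6, 7, 5 and 8). The order of Gpx1 was 1, 2, 4 and 3 in wild type and 7, 6, 8 and 5 in the other group. Neither was the full order of the slopes, but in wild type library 1 was highest and library 3 lowest, as for Sod1 and Gpx4. Among members, Sod1 and Gpx4 had the highest Pearson correlation of log2 values over the 8 libraries, 0.92, and 0.88 for deviations from the genotype means. The lowest of the 45 pairs was Sod2 with Gpx1 at -0.86. Next below the highest came Sod3 with Nqo1 at 0.83, Cat with Gclc at 0.81, Gpx1 with Gpx4 at 0.78 and Gclc with Gclm at 0.77. These are descriptions of 8 libraries that share their scaling. The 3 genes most like Gpx4 by the same measure were Eif1, a translation initiation factor gene (0.99), Rplp2, for an acidic ribosomal protein (0.99), and Sem1, for a small proteasome subunit (0.99), with transcripts of 1322, 964 and 1472 bases. The 3 genes most like Hmox1 were Clip2 (0.93), Pde12 (0.93) and Pcsk1 (0.92). Their transcripts have 4994, 7725 and 5040 bases, beside 1569 for Hmox1. Pcsk1 was low, at 10.4 and 11.8 normalized counts in wild-type libraries 1 and 2. These neighbours of Gpx4 and Hmox1 were picked as the highest over all tested genes, so high correlations over 8 libraries come with the choice.

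Of 12 lists of cell type markers, 2 had sums that did not overlap between the genotypes, those of oligodendrocytes and astrocytes. The 10 oligodendrocyte markers summed to 118130 to 153710 normalized counts in wild type and 61365 to 80904 in heterozygote-labelled libraries, and the 6 astrocyte markers to 22038 to 32236 and 12013 to 19950. Among the lists whose sums overlapped were neutrophils, osteoblasts and neurons. Of the 8 neutrophil markers 6 were in the table. They summed to 145.0 to 2567 normalized counts in wild type and 737.1 to 6433 in heterozygote-labelled libraries. These sums overlapped only through wild-type library 1 (2567), as the other wild-type libraries were at or below 409.7. All 6 neutrophil markers had a log2 fold change above 0, with a median of 2.86, or 3.02 with the length trend removed. For 4 of the 6 the genotypes did not overlap. After adjustment 0 of the 6 passed the threshold, and 1 with the length trend removed. All 6 osteoblast markers had a log2 fold change above 0, and they summed to 2843 to 10102 normalized counts in wild type and 6036 to 12774.5 in heterozygote-labelled libraries, highest in library 7. The 8 neuron markers summed to 155001 to 218350 and 176202 to 207192 normalized counts. The part of these cells in the levels of the 10 antioxidant genes was not tested.

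The rest of the antioxidant system was read from 7 lists that hold 90 genes, of which 86 were in the table and all 86 were tested. A log2 fold change below 0 was found in 55 of the 86, beside 47.7% of all tested genes. None of the 86 passed a limma-trend adjusted p of 0.05. At an unadjusted p under 0.05 there were 19 (22.1%), 4 higher and 15 lower, beside 14.1% of all tested genes. After removal of the length trend there were 13 of the 86, beside 10.5% of all genes in that fit. Among the 86, the genes whose genotypes did not overlap were Prdx5, Gstm5, Fth1 and Selenop (lower) and Keap1, Bach2 and Ncf1 (higher). Beside them, the genotypes of 7.26% of all tested genes did not overlap (3.4% higher and 3.86% lower).

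In the thioredoxin and peroxiredoxin list, whose enzymes reduce peroxides and protein disulfides, 14 of 16 genes had a log2 fold change below 0, with a median of -0.26, or -0.14 with the length trend removed. Prdx5, a mitochondrial and peroxisomal peroxiredoxin, had 5617 to 7383 normalized counts in wild type and 4091 to 5484 in heterozygote-labelled libraries, without overlap, a log2 fold change of -0.39 (limma-trend adjusted p 0.243), or -0.23 with the length trend removed. Prdx6, a peroxiredoxin that also reduces phospholipid peroxides, had 2748 to 4707 and 2645 to 3053, with a log2 fold change of -0.43 (limma-trend adjusted p 0.266). The list of glutathione supply, recycling and use had 12 of 18 tested genes below 0 and a median of -0.14, or -0.02 with the length trend removed. Gss, for glutathione synthetase, the step after glutamate-cysteine ligase, had 570.1 to 1036 normalized counts in wild type and 583.3 to 608.2 in heterozygote-labelled libraries, with a log2 fold change of -0.47 (limma-trend adjusted p 0.278). Gstm5, a glutathione transferase, had a log2 fold change of -0.39, or -0.17 with the length trend removed. Gss and Prdx6 passed an adjusted p of 0.05 when wild-type library 3 was left out, with limma-trend adjusted p of 0.0249 and 0.0223 (up to 0.830 and 0.833 over their alternatives). Library 3 was the lowest wild-type library for both genes. Over all 14870 tested genes 221 passed in that fit, beside 12 with all libraries.

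The list of NRF2 and its regulators had 8 of 11 genes above 0, with a median log2 fold change of 0.10, or 0.05 with the length trend removed. Nfe2l2, the gene of NRF2, had 882.9 to 1415 normalized counts in wild type and 1096 to 1281 in heterozygote-labelled libraries, and a log2 fold change of 0.15; it and Keap1 were chosen for mention after their values were seen. Keap1, for the adaptor that targets NRF2 for degradation, had 1539 to 1755 normalized counts in wild type and 1774 to 1838 in heterozygote-labelled libraries, with a log2 fold change of 0.10 (limma-trend adjusted p 0.587). Bach2, for a repressor that competes at such elements and is best known from B cells, had 22.1, 117.5, 100.8 and 103.9 normalized counts in wild-type libraries 1 to 4 and 153.3 to 181.0 in the libraries labelled heterozygote. Its log2 fold change was 1.19, with a limma-trend adjusted p of 0.294, and without wild-type library 1, the lowest, it was 0.63 (0.237, and 0.129 to 0.619 over all alternatives). Nfe2l1, for a relative of NRF2, had a log2 fold change of 0.16, or 0.06 with the length trend removed.

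Of the genes that supply NADPH, 7 of 9 were below 0 with a median log2 fold change of -0.08, or -0.03 with the length trend removed. Taldo1, for transaldolase, had -0.31, or -0.15 with the length trend removed, and G6pdx, for glucose-6-phosphate dehydrogenase, 0.22, with limma-trend adjusted p of 0.278 and 0.402. G6pdx had 0.14 without wild-type library 1. In the haem and iron list 6 of 8 were below 0, with a median of -0.12, or -0.05 with the length trend removed. Fth1, for the ferritin heavy chain that stores iron, had 69659 to 93880.5 normalized counts in wild type and 47637 to 58667 in heterozygote-labelled libraries, without overlap, a log2 fold change of -0.60 (limma-trend adjusted p 0.214). Fth1 had -0.47 with the length trend removed and -0.19 with quantile normalization (limma-trend adjusted p 0.424, and 0.0472 to 0.671 over all alternatives). Hmox2, the constitutive haem oxygenase, had a log2 fold change of -0.25, or -0.15 with the length trend removed, beside 0.16 for Hmox1. Fth1 has processed pseudogenes in the mouse, and how shared reads were counted is not given in the sources used here.

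In the list of superoxide and peroxide sources and copper delivery 9 of 12 genes were in the table, with 5 above 0. The median log2 fold change was 0.20, or 0.10 with the length trend removed. Ncf1, a subunit of the phagocyte NADPH oxidase, had 93.0 to 162.4 normalized counts in wild type and 163.8 to 354.3 in heterozygote-labelled libraries, without overlap, a log2 fold change of 1.02 (limma-trend adjusted p 0.222). Neutrophils carry this oxidase, and their summed markers were highest in heterozygote-labelled libraries 7 and 8 (6433 and 4785 normalized counts), as was Ncf1 (354.3 and 318.8). Wild-type library 1 came next for the markers (2567), with Ncf1 at 124.6. Heterozygote-labelled libraries 5 and 6 had lower marker sums (1470 and 737.1) but higher Ncf1 (204.2 and 163.8). The part of neutrophils in the Ncf1 values was not tested. Atox1, a copper chaperone with a transcript of 541 bases, had a log2 fold change of -0.55, or -0.24 with the length trend removed. In the last list, of other reductases and selenoproteins, 9 of 15 genes were below 0. Selenop, for the secreted selenium carrier, had 10903 to 15259 normalized counts in wild type and 8209 to 10350.0 in heterozygote-labelled libraries, without overlap, with a log2 fold change of -0.43 (limma-trend adjusted p 0.243). Selenow had -0.35, or -0.08 with the length trend removed.

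**Figure D5:**
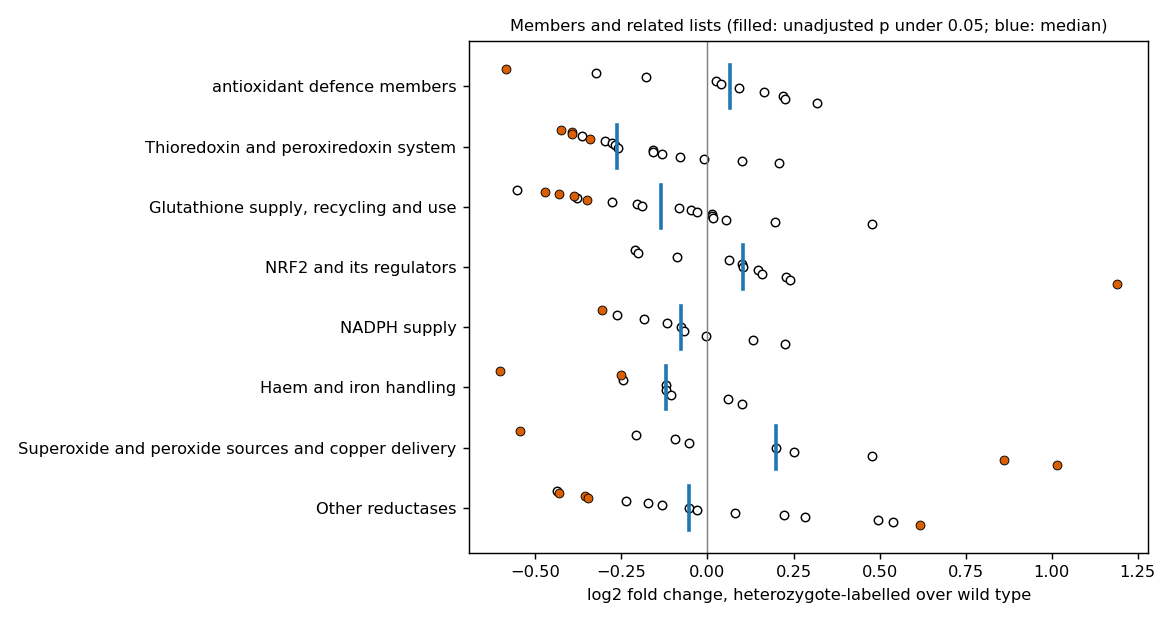
Log2 fold change (horizontal axis, heterozygote-labelled over wild type) of each gene in the 10 members and the 7 related lists. Filled points have an unadjusted p under 0.05, none passed after adjustment, and the blue line is the median of each list, from -0.26 for the thioredoxin and peroxiredoxin system to 0.20 for superoxide and peroxide sources and copper delivery.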

How the data were processed

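Per the labels' protocols, poly(A) strand-specific libraries were made from RNA of the dissected nerves. Per the submitters' processing notes, STAR, Partek, DESeq2 and the build mm10 were used, with no role or version stated. The authors deposited 1 signal value per gene and library, a normalized count; the values show gene reads over a size factor, rounded to 1 decimal. Per the file headers, the authors also deposited p-value, FDR, ratio and log2 ratio columns, and a signed fold-change score that was not used; their model is not given in the sources used here. The step between values was taken as 1 read, and 87.8% to 91.7% of values under 1000 were whole multiples within rounding, too few to treat the values as counts. Intervals rest on the spread between libraries.

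Those 14870 genes that reached 10 normalized counts in 4 or more libraries were tested on log2(value + 1), so folds of low genes are understated, with limma-trend, without covariates, with Benjamini-Hochberg adjustment over all of them and a threshold of 0.05. Transcript length is that of the longest protein-coding GENCODE M21 transcript, matched by symbol for 97.6% of tested genes; the trend with length was removed per library by loess (span 0.5). In simulated data with 200 changed genes (14830 tested), 79% of 2-fold and 98% of 4-fold changes were recovered, with 10 unchanged genes called. The simulated noise was independent between genes, without the length slopes of the real libraries. Changes smaller than 2-fold were not simulated, so these shares do not cover differences of the size seen in the members. The members and lists were chosen with earlier results of these data known. Besides the members, each related list has its 2 genes of smallest unadjusted p named, as none passed. The fits used limma 3.58.1 under R 4.3.3; tables and plots used Python 3.11.15, pandas 2.3.3, numpy 2.4.6 and matplotlib 3.10.9. The alternatives are given in the closing section.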

Additional observations from a re-analysis of the deposited data

Results flagged for a closer look

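A gap test for a single distant library was run on 76 sets of 4 libraries of 1 genotype; it picked out 3 sets, where chance alone would give about 3.8. None was a member. All 3 were wild-type library 1 at the top of its group: Selenop (gap over range 0.834), the summed neutrophil markers (0.891) and the summed endothelial markers (0.869). Selenop had 15259 normalized counts there and 10903 to 11626 in the other wild-type libraries.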

How the results depend on the processing

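No paired analysis was possible because the replicate numbers run from 1 to 8 and none is shared between the genotypes. Of the 10 members 0 passed an adjusted p of 0.05 under any alternative tried, and with all libraries 0 had an adjusted p under 0.10. The direction of Sod1, Sod3, Gpx4, Gclc, Hmox1 and Nqo1 held in all 19 alternatives. The members at an unadjusted p under 0.05 numbered 1 (14.1% of all tested genes), 2 with low Xist as a covariate (16.5%), 3 without the 2 libraries low in Xist (13.5%), 0 without wild-type libraries 1 and 4 (6.48%; an alternative added after seeing the data) and 1 to 3 with each library left out (7.94% to 23%). Members without overlap numbered 3 without the libraries low in Xist (18.4% of all tested genes), 3 without wild-type libraries 1 and 4 (15.5%), and 0 to 2 with each library left out (8.73% to 20.9%); fewer libraries leave more genes without overlap. The members' median log2 fold change was -0.0392 without wild-type libraries 1 and 4, and 0.03 to 0.11 with each library left out. Over all genes, 12 passed, 7 with quantile normalization, 28 with the length trend removed, 0 without wild-type libraries 1 and 4, and 0 to 221 with each library left out (221 without wild-type library 3; 0 without wild-type library 2 or 4 or heterozygote-labelled library 8). In the related lists 0 genes passed, and 0 to 4 with each library left out; those at an unadjusted p under 0.05 numbered 7 without wild-type libraries 1 and 4, and 15 to 35 with each left out. The 4 without wild-type library 3 were Prdx6, Gss, Fth1 and Atox1, in the fit where 221 of all tested genes passed. The cause was not tested.

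Values near 0 turned sign. With the length trend removed the log2 fold change was -0.11 for Sod2, 0.0199 for Gpx1 and -0.12 for Gclm. Without the libraries low in Xist it was -0.0594 for Sod2 and 0.00718 for Gpx1. Without wild-type libraries 1 and 4 it was -0.0503 for Sod2, -0.0282 for Cat and -0.16 for Gclm. With 1 library left out, Sod2 ran from -0.0190 to 0.0943 (below 0 without wild-type replicate 1 or heterozygote-labelled replicate 5), and Gclm from -0.0477 to 0.0995 (below 0 without wild-type library 1 or 4 or heterozygote-labelled library 6). With 4 libraries a group, members with a 95% interval across 0 are not shown to be equal.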

Other observations

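Gpx1 and Gpx4 belong to the selenoproteins, 24 genes in which GENCODE M21 annotates a selenocysteine codon, and this list was looked at after their values were seen. Of the 21 that were tested, 17 had a log2 fold change below 0 and 4 above 0, with a median of -0.17, and -0.09 with the length trend removed; over all tested genes the median was 0.02. The median transcript length was 1678 bases for the 21 and 3162 bases for all tested genes. 0 of the 21 passed a limma-trend adjusted p of 0.05. At an unadjusted p under 0.05 there were 6, all lower: Selenop, Selenow, Gpx4, Selenof, Selenom and Selenok, beside 14.1% of all tested genes in either direction and 7.34% lower. With the length trend removed there were 3 of the 21, beside 10.5% of all genes. Selenof, of the endoplasmic reticulum, had a log2 fold change of -0.36, or -0.23 with the length trend removed. Selenom, also of the endoplasmic reticulum, had -0.48, or -0.21 with the length trend removed. Txnrd1, for the cytosolic thioredoxin reductase and also an NRF2 target, had a log2 fold change of 0.21 (limma-trend adjusted p 0.405).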
